A study of Mus musculus with 12 samples.

Results

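The genes described here are 38 genes of endoplasmic reticulum (ER) stress and of the transcription factor ATF4, chosen by name for their known roles and read in purified mouse hepatocytes on 12 arrays. A gene entered with its brightest probe, by mean signal over all arrays, among the probes detected on at least 1 array. By this rule 34 of the 38 genes had a named probe, against 10838 named genes and 20561 probes on the arrays as a whole. *Canx*, *Dnajb11*, *Manf* and *Derl1* were not analysed here. Of the 34 genes, 28 were detected on all 12 arrays, and *Derl3*, *Atf6* and *Psat1* were detected on fewer than 6, so that their values lie near background.

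The hepatocytes came from adult mice carrying homozygous floxed alleles of both *Gata4* and *Gata6*, of strain C57BL/6 x 129Sv, aged 2.5 to 4.5 months. In the AAV-Cre group (6 arrays) the mice had been given AAV8-Tbg-Cre intravenously 2 weeks before RNA was taken, and in the AAV-GFP group (6 arrays) AAV8-Tbg-GFP. Both groups therefore carried the floxed alleles and an adeno-associated virus, and the Tbg promoter restricts Cre or GFP to hepatocytes. Cells had been freed by perfusion with an enzyme mix and enriched on a density gradient, and nothing in the sources says that each array was a separate animal, so that the p-values measure the spread between these arrays.

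A cell that makes secreted proteins, as the hepatocyte does in large amounts, folds them in the lumen of the ER. When unfolded proteins build up there, 3 membrane sensors respond: IRE1 (*Ern1*) splices the mRNA of *Xbp1*, ATF6 is cut to release a transcription factor, and PERK (*Eif2ak3*) phosphorylates the translation factor eIF2α. The IRE1 and ATF6 arms raise chaperones and the machinery of ER-associated degradation (ERAD), which exports misfolded proteins to the proteasome. The PERK arm slows translation in general but favours that of *Atf4*, whose targets supply amino acids and, in prolonged stress, promote cell death. Other kinases of eIF2α, which sense amino acid shortage or viral RNA, reach *Atf4* without the ER.

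Short sequence elements mark the promoters of these genes, and they are shown because the chaperones and several ERAD genes are described below as varying together. Promoter windows from 250 bases before to 50 bases after the transcription start (RefSeq, GRCm38.p6) were found for 31 of the 34 genes, and not for *Atf6*, *Hyou1* or *Sec61a1*. The ER stress element ERSE (CCAAT, 9 bases, CCACG), which was itself defined in promoters of this kind, was searched on both strands and was found in 8 genes: *Hspa5*, *Hsp90b1*, *Calr*, *Creld2*, *Derl3*, *Dnajc3*, *Pdia6* and *Syvn1*. Over all 27025 genes with such a window, 37 held it, which is 0.137%. ERSE-II (ATTGG, 1 base, CCACG), which shares its last letters with ERSE, was found in *Herpud1* alone of these genes and in 0.0444% of all genes. The element TGACGTGG (UPRE), whose last 5 letters are the reverse complement of the CCACG part, was found in none of the 31 genes and in 0.714% of all genes. The C/EBP-ATF element TGATGNAA, to which ATF4 and C/EBP factors can bind as a pair, was found in *Asns*, *Chac1*, *Herpud1*, *Trib3* and *Vldlr*, and in 4.51% of all genes. A match describes the letters in the window and does not show that a factor binds there. Capitals mark the elements (for ERSE, its 2 outer parts) in the strand of the gene, where a match on the other strand appears reversed.
Hspa5 promoter, chr2:34771840-34772139, plus strand, ERSE at -65 to -47 from the start: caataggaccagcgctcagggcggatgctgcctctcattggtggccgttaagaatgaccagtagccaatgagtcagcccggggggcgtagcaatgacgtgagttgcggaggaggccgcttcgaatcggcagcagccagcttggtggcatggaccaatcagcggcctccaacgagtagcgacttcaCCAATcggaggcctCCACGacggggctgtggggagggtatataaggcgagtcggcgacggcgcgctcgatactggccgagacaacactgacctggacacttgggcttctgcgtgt
Hsp90b1 promoter, chr10:86705395-86705694, minus strand, ERSE at -212 to -194 and at -107 to -89: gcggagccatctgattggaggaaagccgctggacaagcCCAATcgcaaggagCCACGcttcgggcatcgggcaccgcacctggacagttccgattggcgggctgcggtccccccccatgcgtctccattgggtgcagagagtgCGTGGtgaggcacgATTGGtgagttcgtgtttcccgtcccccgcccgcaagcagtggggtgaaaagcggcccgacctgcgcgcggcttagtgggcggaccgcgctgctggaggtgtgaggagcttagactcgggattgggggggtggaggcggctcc
Syvn1 promoter, chr19:6046326-6046625, plus strand, ERSE at -44 to -26: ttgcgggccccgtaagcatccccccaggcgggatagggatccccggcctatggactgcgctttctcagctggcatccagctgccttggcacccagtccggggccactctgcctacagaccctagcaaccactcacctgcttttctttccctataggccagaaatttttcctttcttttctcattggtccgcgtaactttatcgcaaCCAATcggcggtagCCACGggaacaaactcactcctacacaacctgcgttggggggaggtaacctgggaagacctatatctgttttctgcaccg
Herpud1 promoter, chr8:94386179-94386478, plus strand, C/EBP-ATF element at -112 to -105 and ERSE-II at -52 to -42: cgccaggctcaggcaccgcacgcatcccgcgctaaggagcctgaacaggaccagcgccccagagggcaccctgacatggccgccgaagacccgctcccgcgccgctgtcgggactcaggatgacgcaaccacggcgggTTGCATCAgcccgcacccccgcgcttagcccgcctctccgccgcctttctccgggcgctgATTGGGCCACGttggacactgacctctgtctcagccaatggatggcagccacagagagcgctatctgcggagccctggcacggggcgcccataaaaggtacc
Asns promoter, chr6:7693160-7693459, minus strand, C/EBP-ATF element at -23 to -16: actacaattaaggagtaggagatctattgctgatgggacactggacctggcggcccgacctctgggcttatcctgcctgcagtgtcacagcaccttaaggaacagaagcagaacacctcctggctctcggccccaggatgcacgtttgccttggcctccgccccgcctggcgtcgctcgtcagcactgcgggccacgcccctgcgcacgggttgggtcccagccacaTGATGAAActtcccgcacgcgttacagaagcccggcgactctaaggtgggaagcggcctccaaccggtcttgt
Vldlr promoter, chr19:27216770-27217069, plus strand, C/EBP-ATF element at -200 to -193: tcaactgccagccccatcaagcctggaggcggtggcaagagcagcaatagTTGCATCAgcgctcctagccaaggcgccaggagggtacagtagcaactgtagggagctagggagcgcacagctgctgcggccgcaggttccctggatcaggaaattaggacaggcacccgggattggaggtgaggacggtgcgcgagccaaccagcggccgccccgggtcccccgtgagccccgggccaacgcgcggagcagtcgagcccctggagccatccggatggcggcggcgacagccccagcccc

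All values are log2 of the array signal after quantile normalization, and differences are AAV-Cre minus AAV-GFP with the standard error (SE) of limma. Array medians before normalization ran from 215.38 to 287.526, and 14318 to 16381 of 45281 probes were detected per array. Of 7 hepatocyte markers 4 were measured, all on 12 arrays, with a log2 summed signal of 16.28 to 16.49 in AAV-Cre and 16.23 to 16.55 in AAV-GFP. The *Gata4* probe lay at background in both groups (8.06 ± 0.27 in AAV-Cre and 7.87 ± 0.14 in AAV-GFP; SD, n = 6 each). Of 2 *Gata6* probes, 1 was higher in the group labelled AAV-Cre (11.59 ± 0.37, against 9.88 ± 0.23 in the group labelled AAV-GFP; SD, n = 6 each; difference 1.71, adjusted p = 0.000377 in limma) and the other differed by 0.26. Whether these probes lie in the deleted exons is not known here, so they do not check the labels, by which the groups are named below. AAV-Cre replicate 3 stood apart in *Xist* (13.31, with 7.70 to 7.95 on every other array). On it the Y-linked gene *Eif2s3y* read 7.75, with 11.53 to 11.89 elsewhere, which is the pattern of female RNA among male. The haemoglobin gene *Hba-a1* was highest there too (12.66), followed by AAV-GFP replicate 4 (11.27), with 8.33 to 10.12 elsewhere. AAV-GFP replicate 4 also stood apart in the neutrophil gene *S100a8* (10.26, with 7.79 to 8.59 elsewhere).

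None of the ER stress and ATF4 genes was called different between AAV-Cre and AAV-GFP hepatocytes. At an adjusted p under 0.05 limma called 0 of 34, beside 34 of all 20561 probes (0.165%), and at an adjusted p under 0.25, 0 of 34 beside 111 probes (0.54%). At an unadjusted p under 0.05, 2 of 34 passed, *Vldlr* higher and *Derl2* lower, beside 5.05% of all probes. In 0 of the 34 genes did the arrays of the groups separate without overlap, beside 0.501% of all probes. Signs were uneven: 27 genes had a difference above 0 and 7 below, with a median of 0.11, beside 51% of all probes above 0 and a median of 0.00 over all of them. Without AAV-Cre replicate 1 the median of the 34 was 0.03. With the replicate number as a block in limma, 0 of the 34 passed an adjusted p under 0.05. In that setting *Creld2* and *Sdf2l1* passed at under 0.25 (adjusted p = 0.2 and 0.229), beside 177 of all 20561 probes. The number of arrays limits how small a change could be seen: the 95% interval for *Hspa5* ran from -0.36 to 0.39. The widest interval of the 34, that of *Ddit4*, ran from -0.77 to 0.98.

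**Figure D1:**
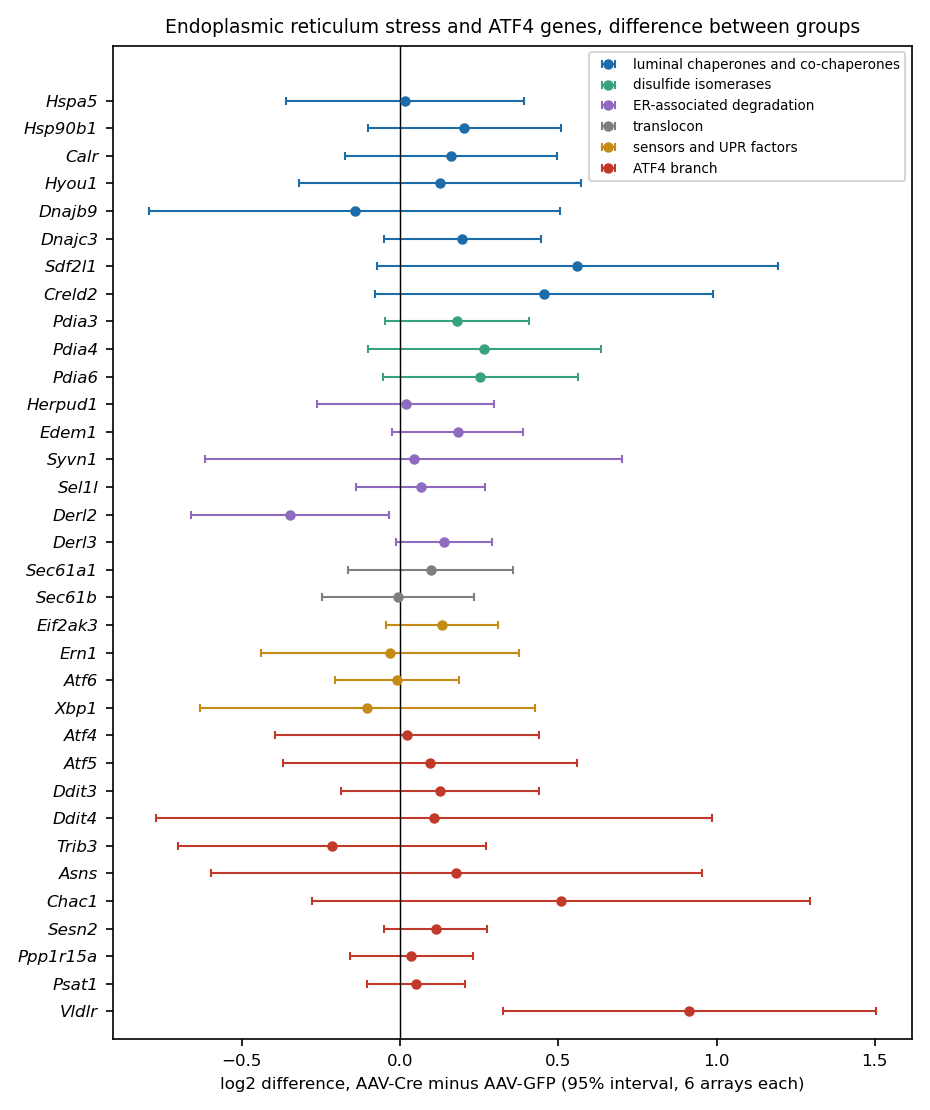
Log2 difference of each of the 34 genes, AAV-Cre minus AAV-GFP, ordered by role from the top, with limma's 95% interval over 6 arrays in each group. The points lie between -0.35 and 0.91, and only the intervals of *Vldlr* and *Derl2* leave out 0.

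Among the luminal chaperones and their partners, 8 of 11 were measured, 7 had a difference above 0 and none passed, with a median of 0.18. *Hspa5* encodes BiP, the main ER chaperone, which also holds the sensors inactive. Its probe had a mean of 9.38, beside 15.00 for *Hsp90b1*, and the lowest detected value of an array averaged 8.22. The background left in the signal narrows the differences of such a probe. *Hspa5* read 9.88, 9.11, 9.63, 9.09, 9.09 and 9.55 on AAV-Cre replicates 1 to 6, against 9.83, 9.56, 9.59, 8.94, 9.21 and 9.12 on AAV-GFP replicates 1 to 6. The groups overlapped almost fully, replicate 1 being highest in each (9.39 ± 0.34 in AAV-Cre and 9.38 ± 0.34 in AAV-GFP; SD, n = 6 each; difference 0.02, SE 0.17, exact permutation p = 0.924).

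The largest differences in this group belonged to 2 small ER proteins. *Sdf2l1* encodes a partner of the BiP co-chaperones that keeps client proteins soluble. Its lowest, median and highest values were 10.03, 10.65 and 11.85 in AAV-Cre and 9.53, 10.19 and 10.82 in AAV-GFP (difference 0.56, SE 0.29, exact permutation p = 0.126). Replicate 1 was highest in both groups, and without AAV-Cre replicate 1 the difference was 0.34. *Creld2*, an ER protein induced by ATF6, ran 12.15, 12.72 and 13.54 in AAV-Cre against 12.05, 12.25 and 12.98 in AAV-GFP (difference 0.45, SE 0.25, exact permutation p = 0.143). The AAV-Cre values of *Creld2* split, with replicates 1 and 3 at 13.54 and 13.52 and the other 4 at 12.79 or below. A second *Creld2* probe gave 0.52.

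The other 5 chaperone genes had smaller differences. *Hsp90b1* (GRP94, the ER member of the HSP90 family) differed by 0.20, *Dnajc3* (an ER co-chaperone also known as P58IPK) by 0.20, *Calr* (calreticulin, a lectin chaperone) by 0.16 and *Hyou1* (GRP170, a nucleotide exchange factor for BiP) by 0.13. Without AAV-Cre replicate 1 the difference was 0.13 for *Dnajc3* and 0.067 for *Calr*. *Dnajb9* (ERdj4, a co-chaperone that is a target of XBP1) had the opposite sign, -0.14, with a wide spread. Its lowest, median and highest values were 11.76, 12.44 and 13.42 in AAV-Cre and 12.07, 12.41 and 13.43 in AAV-GFP. Replicate 1 was again the highest array in both groups. *Hyou1* ran 9.51, 9.98 and 10.82 in AAV-Cre and 9.82, 9.94 and 10.47 in AAV-GFP, where replicate 1 stood alone above the other 5 arrays.

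The disulfide isomerases, which form and rearrange the disulfide bonds of secreted proteins, all had differences above 0 and none passed: *Pdia4* 0.27, *Pdia6* 0.25 and *Pdia3* 0.18, the last being the isomerase that works with calreticulin. Without AAV-Cre replicate 1 *Pdia4* differed by 0.14, and without AAV-GFP replicate 4 *Pdia3* differed by 0.10. A second *Pdia6* probe, detected on all arrays, gave 0.07. The translocon, the channel through which new proteins enter the ER, had small differences: *Sec61a1* differed by 0.10 and *Sec61b* by -0.01. *Sec61b* had its lowest array in replicate 6 of both groups, at 9.08 in AAV-Cre and 8.98 in AAV-GFP, with medians of 9.45 and 9.44.

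Of the ERAD genes 6 of 7 were measured, with a median difference of 0.05. *Derl2* encodes derlin-2, a membrane protein of the channel through which misfolded proteins leave the ER. Its lowest, median and highest values were 11.25, 11.60 and 12.04 in AAV-Cre, against 11.67, 11.94 and 12.33 in AAV-GFP. AAV-Cre replicates 5, 6 and 2 lay below every AAV-GFP array, and the other 3 lay within the AAV-GFP range (difference -0.35, SE 0.15, limma p = 0.032, adjusted p = 0.892; exact permutation p = 0.0606). A second *Derl2* probe gave -0.18 (exact permutation p = 0.262). *Edem1*, which passes misfolded glycoproteins to degradation, differed by 0.18, and *Derl3* by 0.14 near background.

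*Syvn1* (HRD1), the ubiquitin ligase at the centre of ERAD, had nearly equal means and an unequal spread. It read 15.16, 13.45, 14.72, 13.55, 13.31 and 14.44 on AAV-Cre replicates 1 to 6, against 14.48, 14.01, 14.53, 13.58, 14.02 and 13.74 on AAV-GFP replicates 1 to 6. Replicates 1, 3 and 6 were high and 2, 4 and 5 low within AAV-Cre (SD 0.77), while the AAV-GFP arrays lay closer together (SD 0.38; difference 0.04, SE 0.31, exact permutation p = 0.905). Its partner *Sel1l* differed by 0.07, and *Herpud1*, a membrane protein that assembles the ligase complex, by 0.02.

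The sensors and their factor showed no common direction. *Ern1* differed by -0.03, *Atf6* by -0.01 and *Eif2ak3* by 0.13. *Xbp1* encodes the factor that IRE1 activates by splicing, and an array probe of this kind does not tell spliced from unspliced mRNA. *Xbp1* ran 13.63, 14.12 and 14.76 in AAV-Cre and 13.62, 14.24 and 14.87 in AAV-GFP (difference -0.10, SE 0.25, exact permutation p = 0.712). Replicates 1 and 2 were its highest arrays in both groups.

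In the ATF4 branch all 11 genes were measured, 10 had a difference above 0 and *Vldlr* alone had an unadjusted p under 0.05. *Vldlr* encodes the very low density lipoprotein receptor, which takes up triglyceride-rich particles, is low in the healthy liver and has been described as a target of the PERK and ATF4 arm in mouse liver. It read 8.73, 9.37, 10.36, 9.51, 9.36 and 10.36 on AAV-Cre replicates 1 to 6, against 8.45, 8.59, 8.53, 9.56, 8.45 and 8.62 on AAV-GFP replicates 1 to 6. All 6 AAV-Cre arrays lay above 5 of the 6 AAV-GFP arrays, and AAV-GFP replicate 4 lay among the AAV-Cre values (9.61 ± 0.64 in AAV-Cre and 8.70 ± 0.43 in AAV-GFP; SD, n = 6 each). The difference was 0.91 (SE 0.27, 1.88-fold), with limma p = 0.00505, adjusted p = 0.481 over all probes and exact permutation p = 0.0216. Both other *Vldlr* probes were higher too, by 0.80 and 0.79, with adjusted p of 0.446 and 0.33. Leaving out AAV-Cre replicate 1 gave 1.08 with an adjusted p of 0.149, and leaving out AAV-GFP replicate 4 gave 1.10 with an adjusted p of 0.234. With normexp background correction the difference was 1.56. The smallest difference over the 19 alternatives was 0.76, without AAV-Cre replicate 3. Over all 19 alternatives the adjusted p ran from 0.149 to 0.79.

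Endothelial cells of many tissues also express *Vldlr*. Of the 6 endothelial markers 6 were measured and 3 were detected on all arrays, and their log2 summed signal ran from 11.99 to 13.44 in AAV-Cre and from 11.65 to 13.10 in AAV-GFP. Their mean log2 signal was highest on AAV-Cre replicates 3 (9.51) and 6 (9.43) and AAV-GFP replicate 4 (9.43), which are also the 3 highest arrays of *Vldlr*. The fourth highest array of *Vldlr*, AAV-Cre replicate 4 (9.51), had the lowest endothelial mean of its group (8.89), and AAV-GFP replicate 3 and AAV-Cre replicate 1, next in the endothelial mean (9.38 and 9.34), read 8.53 and 8.73 in *Vldlr*. The part of these cells in the *Vldlr* difference was not tested. In bulk RNA, fewer cells of a type and less RNA per cell cannot be told apart.

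**Figure D2:**
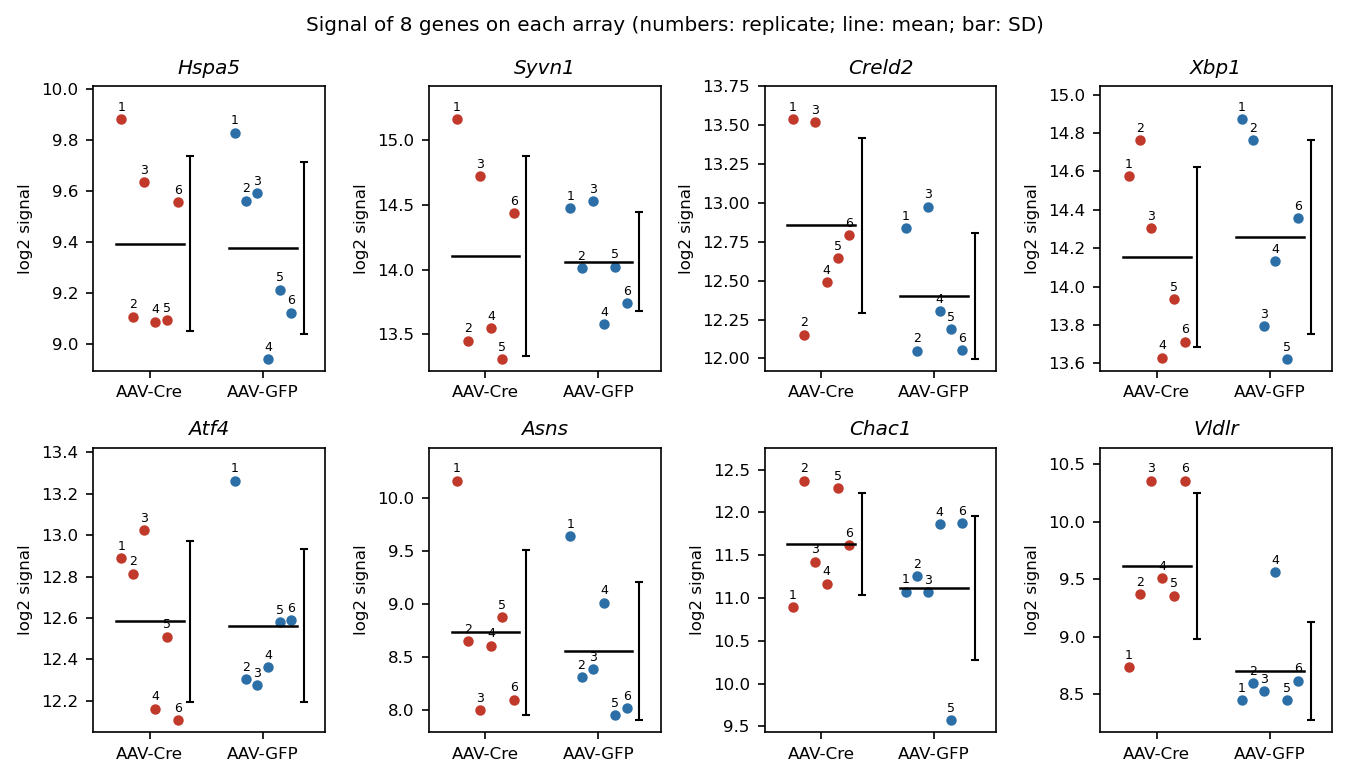
Log2 signal of 8 genes on every array, AAV-Cre left and AAV-GFP right in each panel, with the replicate number above each point, the group mean as a line and the SD (n = 6) as a bar. Replicate 1 is the highest array of *Hspa5* and *Asns* in both groups, and *Vldlr* is the gene whose groups lie farthest apart.

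The regulators of the branch differed little between the group means. *Atf4* ran 12.11, 12.66 and 13.02 in AAV-Cre and 12.28, 12.47 and 13.26 in AAV-GFP, with AAV-GFP replicate 1 alone above 12.59 in its group (difference 0.02, SE 0.19, exact permutation p = 0.918). The second *Atf4* probe had the opposite sign (-0.64, exact permutation p = 0.156), so no direction is given for *Atf4* mRNA. *Ddit3* (CHOP), the factor that promotes death in prolonged stress, ran 8.56, 8.97 and 9.23 in AAV-Cre and 8.57, 8.71 and 9.43 in AAV-GFP (difference 0.13, SE 0.15). *Atf5*, a relative of *Atf4*, differed by 0.09, and *Ppp1r15a* (GADD34), which removes the phosphate from eIF2α, by 0.04.

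Some ATF4 targets ranged more widely between arrays, while *Sesn2* and *Psat1*, near background, did not. *Asns* encodes asparagine synthetase, the classical gene of the amino acid response. It read 10.17, 8.65, 8.00, 8.61, 8.88 and 8.10 on AAV-Cre replicates 1 to 6, against 9.65, 8.31, 8.39, 9.02, 7.95 and 8.02 on AAV-GFP replicates 1 to 6, and it was detected on 8 of the 12 arrays. Replicate 1 was the highest array in both groups (difference 0.18, SE 0.36, exact permutation p = 0.673). *Chac1*, an enzyme that degrades glutathione, ran 10.89, 11.52 and 12.37 in AAV-Cre and 9.57, 11.16 and 11.87 in AAV-GFP (difference 0.51, SE 0.37, exact permutation p = 0.268). AAV-GFP replicate 5 lay far below the other arrays, and without it the *Chac1* difference was 0.20.

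*Ddit4* (REDD1), a stress-induced inhibitor of the growth kinase mTORC1, ran 8.65, 9.53 and 10.25 in AAV-Cre and 8.42, 9.28 and 10.58 in AAV-GFP. In AAV-GFP replicates 2, 3 and 5 read 9.96 or more and the other 3 read 8.60 or less, and the groups had nearly the same mean (difference 0.11, SE 0.41). *Trib3*, a pseudokinase that feeds back on ATF4, was the 1 gene of the branch below 0. It ran 8.98, 9.40 and 9.77 in AAV-Cre and 8.92, 9.52 and 10.26 in AAV-GFP, where replicates 2 and 3 were high (difference -0.21, SE 0.23, exact permutation p = 0.405), and without AAV-GFP replicate 2 the difference was -0.079. *Sesn2*, a sensor of leucine, and *Psat1*, an enzyme of serine synthesis, differed by 0.11 and 0.05 and lay near background.

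Longer lists of the same pathways were read in the same way. Of 51 further genes of ER folding, export and translocation 44 were measured, of 25 further ERAD genes 21, of 13 further sensors and processing genes 9, and of 45 further genes of the integrated stress response 30. In each of these lists limma called 0 at an adjusted p under 0.05, in either direction. At an unadjusted p under 0.05 the numbers were 1 higher and 0 lower, 0 and 2, 1 and 1, and 1 and 0, in the order of the lists, beside the 5.05% of all probes given above. The lowest adjusted p was 0.39, for *Rad23b*, which shuttles ubiquitinated proteins to the proteasome (11.50 ± 0.09 in AAV-Cre and 11.71 ± 0.06 in AAV-GFP; SD, n = 6 each; difference -0.21, exact permutation p = 0.00216), and its arrays did not overlap between the groups. Next came *Nfe2l1*, an ER-bound factor that raises proteasome genes (0.28), *Fam8a1*, a member of the HRD1 complex (-0.28), *Dnajc10*, an ER disulfide reductase (0.29), and *Cebpb*, a partner of ATF4 (0.36). Their adjusted p were 0.632 or more. *Creb3* and *Creb3l3*, ER-bound factors released by the same proteases as ATF6, differed by -0.22 and -0.21.

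Variation between arrays of the same group was larger in these genes than on the arrays in general. The median within-group SD was 0.335 over the 28 genes detected on all arrays, beside 0.179 over the 11952 probes detected on all arrays. The 2 sets were not matched for signal, and the background left in the signal narrows the spread of weak probes. The range within a group passed 1.5 in 7 genes: *Dnajb9*, *Sdf2l1*, *Syvn1*, *Ddit4*, *Asns*, *Chac1* and *Vldlr*. The genes were high or low on particular arrays. On AAV-Cre replicate 1, 29 of the 34 genes lay above their own 12-array median and 14 had their highest value, and on AAV-Cre replicate 3, 26 lay above it. On AAV-GFP replicates 1 and 3, 20 each lay above it. AAV-GFP replicates 4 and 6 were at the low end, with 8 and 9 genes above the median.

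The chaperones, which are among these genes, followed this order at its top but not throughout. AAV-Cre replicate 2, with 18 of the 34 genes above their median, had the lowest chaperone mean of its group. The mean over the 8 chaperone genes was 12.60, 11.69, 12.37, 11.80, 11.70 and 11.73 on AAV-Cre replicates 1 to 6, against 12.21, 11.64, 12.07, 11.52, 11.77 and 11.51 on AAV-GFP replicates 1 to 6. Replicates 1 and 3 were the 2 highest arrays in both groups. The mean over the 11 genes of the ATF4 branch was 10.09, 9.89, 10.09, 9.72, 10.01 and 9.98 on AAV-Cre replicates 1 to 6, against 9.82, 9.82, 9.90, 9.77, 9.65 and 9.75 on AAV-GFP replicates 1 to 6. Replicates 1 and 3 were the highest arrays of each group here too, over a narrower range and by small margins. The immediate early genes, which rise when hepatocytes are isolated, were measured for 10 of 12, with a log2 summed signal of 13.68 to 15.07 in AAV-Cre and 13.79 to 15.07 in AAV-GFP. Their mean log2 signal was 10.41, 10.40, 10.06, 9.64, 9.84 and 10.20 on AAV-Cre replicates 1 to 6. On AAV-GFP replicates 1 to 6 it was 10.29, 10.16, 10.01, 9.65, 10.05 and 9.98. Replicate 1 was the highest array of each group. AAV-Cre replicates 2 and 6 lay above AAV-Cre replicate 3 here, though their chaperone means were lower. AAV-GFP replicate 3 lay below AAV-GFP replicates 2 and 5. Of the 10 immediate early genes, 5 had a difference above 0 and 5 below, with a median of -0.02. Among them *Fos* was higher in AAV-Cre without overlap of the arrays (10.20 ± 0.66 in AAV-Cre and 9.23 ± 0.21 in AAV-GFP; SD, n = 6 each; difference 0.98, exact permutation p = 0.00216, the smallest possible), with an adjusted p of 0.26 in limma. The part of cell isolation, of sex or of other cells in the array pattern was not tested, and no source used here says which arrays shared a BeadChip.

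**Figure D3:**
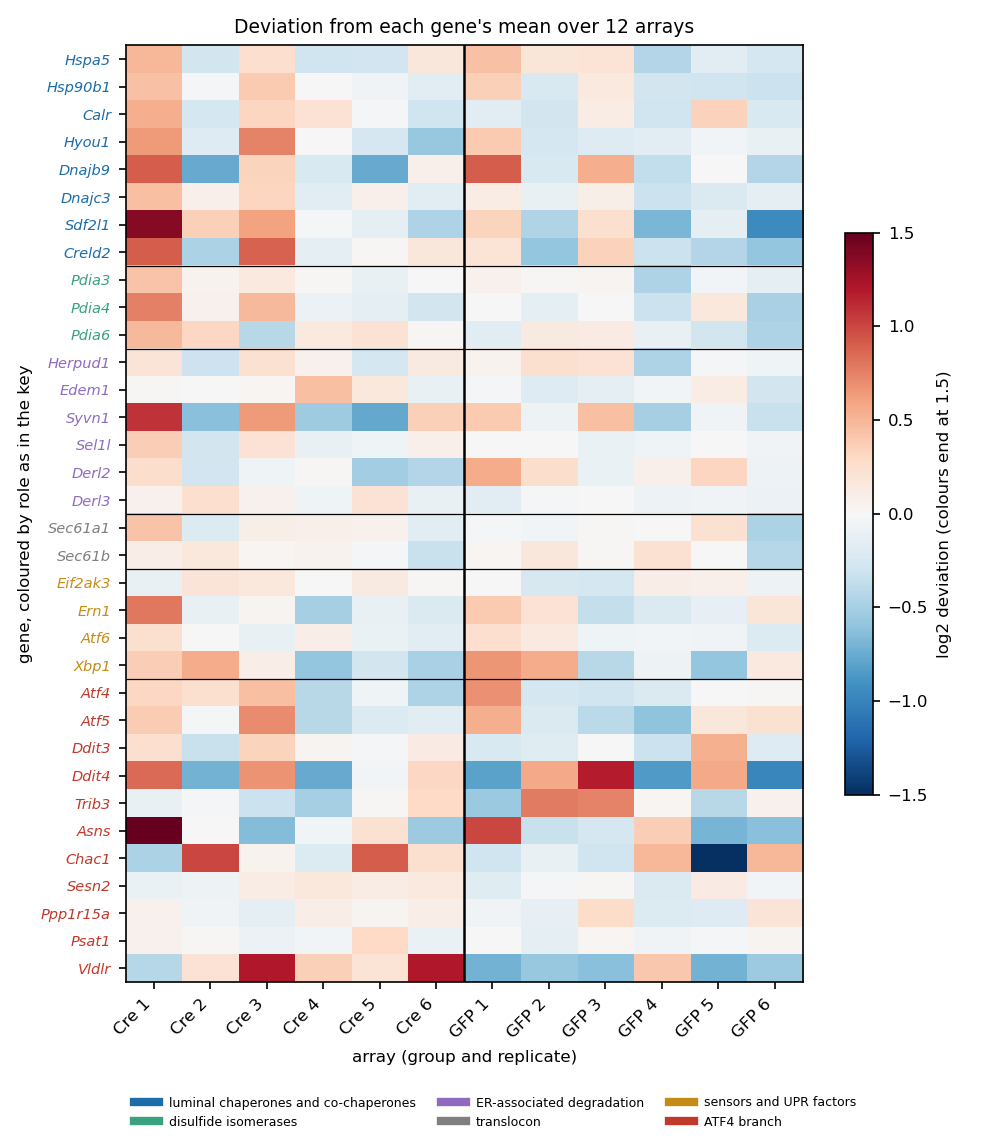
Deviation of each of the 34 genes from its own mean over 12 arrays, on the log2 scale, with genes down the page by role and arrays across, AAV-Cre left of the line and AAV-GFP right of it. AAV-Cre replicates 1 and 3 and AAV-GFP replicates 1 and 3 are warm through most of the chaperones. On AAV-Cre replicate 1 the mean deviation was 0.72 over the 8 chaperones and 0.21 over the 11 genes of the ATF4 branch.

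To measure this, each gene was correlated with *Hspa5* over the 12 arrays after the group means were removed. Of 33 genes, 26 had a positive Pearson's r, with a median of 0.43, beside a median of 0.00 over all other probes. In 11 genes the permutation p within groups was under 0.05, all with positive r, and by Spearman's rho in 13. In limma, with *Hspa5* as a covariate beside the group, 13 of 33 had an unadjusted p under 0.05, all with a slope above 0, beside 14.4% of all 20560 other probes in either direction. At an adjusted p under 0.05 it was 1 of 33, beside 6 of the 20560 probes (0.0292%). All values of an array share its RNA, labelling and normalization, which is a common source for such relations. The permutations and limma also take the 12 arrays as independent. If same-numbered arrays were paired, which the labels do not say, these p would be too small.

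The gene that passed was *Syvn1* (r = 0.91, permutation p = 7e-05; rho = 0.90, p = 0.00025; adjusted p = 0.0385 in limma). A second probe of *Dnajb9* was among the 6 as well, and the brighter *Dnajb9* probe lay just outside (r = 0.89, adjusted p = 0.0506). The 4 others were 2 probes of *Tfrc*, the transferrin receptor, 1 of *Cp*, the copper protein ceruloplasmin, and 1 probe without a name here. The call of *Syvn1* rested on the arrays used: without any 1 of AAV-Cre replicates 1 to 5 or of AAV-GFP replicates 3, 4 and 6, limma called 0 members.

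The 11 genes had rho from 0.62 to 0.90 and adjusted p in limma from 0.0385 to 0.255. The chaperones all had positive r, with a median of 0.74 over 7 genes: *Dnajb9* 0.89, *Hsp90b1* 0.77, *Creld2* 0.77, *Dnajc3* 0.74, *Sdf2l1* 0.69, *Hyou1* 0.53 and *Calr* 0.34. Of the isomerases *Pdia3* (0.84) and *Pdia4* (0.63) passed the permutation test, and *Pdia6* had r = 0.14. The second *Pdia6* probe, detected on all arrays, correlated with the one used here at only 0.065. Of the ERAD genes *Syvn1*, *Herpud1* (0.79) and *Sel1l* (0.69) passed, while r was 0.52 for *Derl2*, -0.28 for *Derl3* and -0.32 for *Edem1*. Of the sensors only *Ern1* (0.63) had a permutation p under 0.05 (p = 0.032), and *Eif2ak3* had the lowest r of all (-0.50, permutation p = 0.118). In the ATF4 branch 0 of 11 passed the permutation test, by Spearman's rho 2 did (*Ddit4* and *Atf5*), and the median r was 0.14. *Chac1* (-0.38), *Vldlr* (-0.24) and *Trib3* (0.11) had the lowest r with *Hspa5* among the genes of this branch detected on every array. The difference between roles was not tested.

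Removing the 2 arrays farthest from the median of *Hspa5*, replicate 1 of each group, left 4 of the 11 with a permutation p under 0.05: *Syvn1* (r = 0.90), *Herpud1* (0.88), *Dnajb9* (0.78) and *Pdia3* (0.74). *Ddit4* of the ATF4 branch, which had not passed over 12 arrays, then had r = 0.85 (permutation p = 0.0105). For the other 7 the relation rests in part on those 2 arrays, with r of 0.64 for *Creld2*, 0.57 for *Hsp90b1* and 0.22 for *Ern1*. The median over the 7 chaperones was then 0.56. Within the groups taken alone, 22 of 33 genes had a positive r in both, and the median over the chaperones was 0.65 in AAV-Cre and 0.79 in AAV-GFP (6 arrays each).

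**Figure D4:**
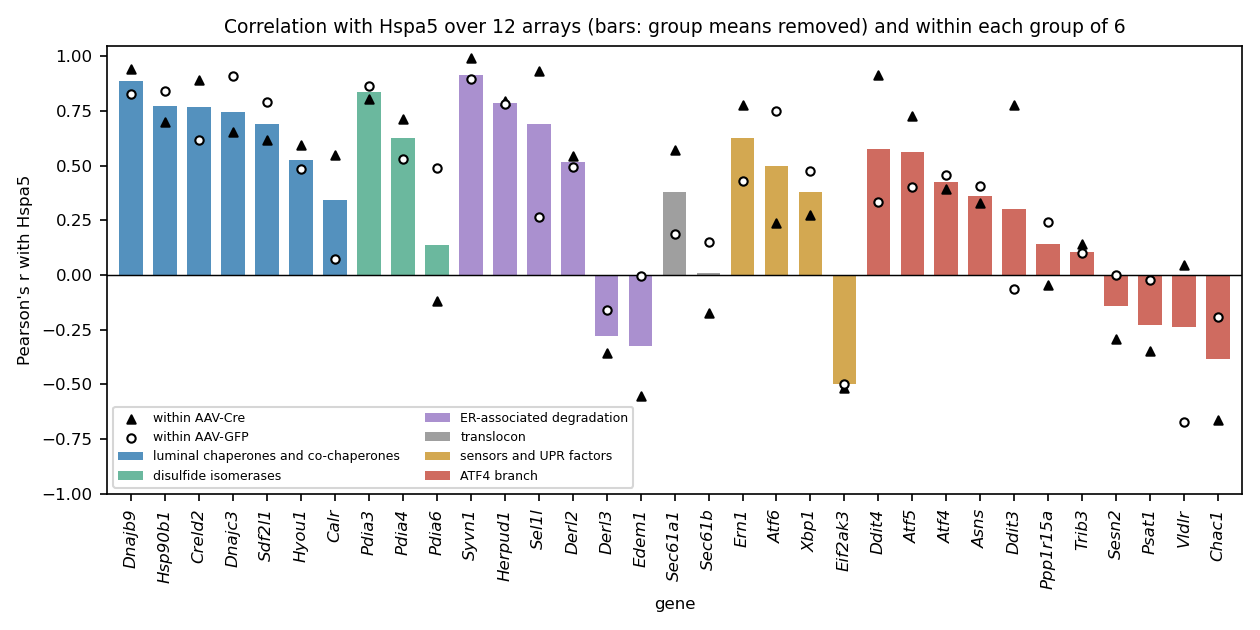
Pearson's r of each gene with *Hspa5* over 12 arrays after removal of the group means (bars, coloured by role), with r within the 6 AAV-Cre arrays (triangles) and within the 6 AAV-GFP arrays (circles). The chaperone bars all lie between 0.34 and 0.89, and the bars of the ATF4 branch between -0.38 and 0.58.

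The ERSE seen in the promoters above was found in genes of high and of low r. Of its 7 carriers other than *Hspa5*, *Syvn1*, *Hsp90b1*, *Creld2* and *Dnajc3* had r of 0.74 or more, *Calr* had 0.34, *Pdia6* 0.14 and *Derl3* -0.28. *Derl3* was detected on only 2 arrays, and the 2 *Pdia6* probes correlated with each other at 0.065, so the low r of these genes is uncertain. *Dnajb9* and *Pdia3*, with r of 0.89 and 0.84, held none of the 4 elements in the window searched.

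The same was done within the ATF4 branch. With *Asns* in the place of *Hspa5*, 1 of 10 genes had a permutation p under 0.05, and its r was negative: *Sesn2* (r = -0.75, permutation p = 0.00617; rho = -0.68, permutation p = 0.023; adjusted p = 0.597 in limma). *Sesn2* lay near background, and its other probes, detected on 6 and 1 arrays, correlated with the one used here at 0.42 and -0.41. Without replicate 1 of each group, the 2 arrays farthest from the median of *Asns*, its r was -0.63 with a permutation p of 0.0871, so the relation rests in part on those arrays. *Atf5*, with r = 0.12 over 12 arrays, then had r = -0.77 (permutation p = 0.0092). In limma 0 of 10 passed at an adjusted p under 0.05, beside 0 of 20560 probes (0%), and 1 of 10 at an unadjusted p under 0.05, beside 7.61%. *Atf4* itself had r = 0.44 with *Asns* (permutation p = 0.187), *Trib3* -0.23, *Vldlr* -0.49 and *Chac1* -0.00. Over the 55 pairs of the branch the median r was -0.07, beside 0.74 over the 28 pairs of chaperones, where all 28 were positive. *Psat1*, *Asns* and *Sesn2* of the branch were detected on 1, 8 and 9 arrays, while every measured chaperone was detected on all 12. Over the 15 pairs of ERAD genes the median r was -0.16, and 7 were positive.

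Outside the pathways, the genes of no list nearest to *Hspa5* among 10657 were *Pmepa1* (r = 0.92, detected on 1 array), *Stx5a*, a fusion protein of ER to Golgi transport (0.91), *Syne2* (0.91), *Tfrc* (0.91) and *Gucd1* (0.89). Those nearest to *Asns* were *Tmem30a* (0.86), *Lig4*, *Mrpl16*, *C2cd4a* and *Brix1* (0.85 each). All are values over 12 arrays with the group means removed.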

How the data were processed

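Total RNA was labelled with the TargetAmp-Nano kit and hybridised to Illumina MouseWG-6 v2 BeadChips. The authors exported from GenomeStudio a probe intensity, neither background-subtracted nor normalized, and a detection p-value that ranks each probe against the negative controls of its array. The deposited value table holds intensities of 19627 probes that the authors quantile-normalized and filtered, and it was an alternative here. The background left in the exported signal makes the folds of weak probes too small.

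Here the exported signal was quantile-normalized and log2-transformed, and 20561 probes were kept whose detection p was at most 0.05 somewhere among the 12 arrays. Symbols came from the platform annotation, and 3993 kept probes had none. AAV-Cre was compared with AAV-GFP by limma 3.58.1 (R 4.3.3), its p-values being adjusted by the Benjamini-Hochberg method across those 20561 probes, and the script was tested on simulated data. The SAM method of the study was not rerun. Exact two-sided permutation tests of single genes used all 924 assignments (smallest p 0.00216). Correlations used group-centred values and 100000 two-sided permutations within groups, for 33 genes with *Hspa5* and 10 with *Asns* (NumPy 2.4.6, SciPy 1.17.1). These p are unadjusted, and adjusted p come from limma with the centred anchor gene as covariate over all probes, added after the data were seen.

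The members and lists were chosen with earlier results of these data known. Every member may be named. Values by array are given for *Hspa5*, *Xbp1*, *Atf4*, *Ddit3*, *Trib3*, *Asns*, members with an unadjusted p under 0.05 or a within-group range over 1.5, and members with an outlying array, as single values or as lowest, median and highest. From each wider list up to 4 genes of lowest p could be named, and the 5 nearest genes to each anchor. Probes are hybridised in bulk, and 6 arrays a group limit the precision. Alternatives were median scaling, normexp background correction, detection on at least 6 arrays, no detection filter, the authors' values, a replicate block, the mean of a gene's probes, and leaving out each array. Promoter sequences are RefSeq, GRCm38.p6.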

Additional observations from a re-analysis of the deposited data

Results flagged for a closer look

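Of 68 groups of 6 arrays tested (34 genes in each of the AAV-Cre and AAV-GFP groups), 7 held an array whose gap to its nearest neighbour was large against the range of the group, where chance alone gives about 3.4. In AAV-GFP replicate 1 was apart at the top for *Hyou1* (10.47, next 10.04) and for *Atf4* (13.26, next 12.59). *Sec61b* had a low array in replicate 6 of AAV-Cre (9.08, next 9.38) and in replicate 6 of AAV-GFP (8.98, next 9.41). AAV-GFP replicate 5 was apart at the top for *Ddit3* (9.43, next 8.89) and at the bottom for *Chac1* (9.57, next 11.07). AAV-GFP replicate 4, the array with high *S100a8*, was apart at the top for *Vldlr* (9.56, next 8.62).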

How the results depend on the processing

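Under all 19 alternatives 0 of the 34 genes were called at an adjusted p under 0.05, and 18 of 34 kept the sign of their difference. Leaving out 1 array gave 0 to 1 genes at an adjusted p under 0.25 (*Vldlr*, without AAV-Cre replicate 1 or AAV-GFP replicate 4), and 1 to 4 at an unadjusted p under 0.05. The unadjusted number was 1 with median scaling, 1 with the mean of a gene's probes, 1 without AAV-Cre replicate 5 or AAV-GFP replicate 2, and 4 without AAV-Cre replicate 6. Over all probes, calls at an adjusted p under 0.05 were 10 with median scaling and 18 with normexp, and were 19 to 42 with 1 array left out. The median difference of the 34 genes was 0.03 to 0.14 with 1 array left out. Signs turned for *Sel1l* (-0.036) and *Atf4* (-0.31) with the mean of a gene's probes, and for *Sec61b* (0.044) and *Ern1* (0.023) with median scaling. With 1 array left out, signs turned for *Hspa5* (-0.081 to 0.11), *Hyou1* (-0.010 to 0.25), *Dnajb9* (-0.34 to 0.025), *Herpud1* (-0.075 to 0.082), *Syvn1* (-0.17 to 0.20), *Sec61b* (-0.094 to 0.059), *Ern1* (-0.19 to 0.065), *Atf6* (-0.058 to 0.038), *Xbp1* (-0.23 to 0.020), *Atf4* (-0.065 to 0.16), *Atf5* (-0.037 to 0.21), *Ddit4* (-0.078 to 0.35), *Asns* (-0.11 to 0.39), *Ppp1r15a* (-0.00053 to 0.094) and *Psat1* (-0.0028 to 0.075). Normexp, which removes background, gave larger differences for *Vldlr* (1.56) and for the dim *Derl3* (0.40), *Eif2ak3* (0.37), *Sesn2* (0.34) and *Ddit3* (0.26), and the mean of a gene's probes gave smaller ones for *Edem1* (0.042) and *Sesn2* (0.033). Genes with a permutation p under 0.05 against *Hspa5* numbered 18 with median scaling and 8 to 14 with 1 array left out. *Syvn1*, *Dnajb9*, *Herpud1*, *Hsp90b1*, *Creld2*, *Dnajc3*, *Pdia3* and *Sel1l* passed in each of 19 settings. The permutation test was run on these genes alone, so no share of all probes stands beside its counts. Genes whose slope on *Hspa5* passed at an adjusted p under 0.05 numbered 12 with median scaling, where 1688 of all probes passed, and 0 with normexp, where 0 did. The number was 2 with detection on at least 6 arrays (beside 11 of all probes), 2 without the filter (13) and 2 with the authors' values (11). It was 2 with the mean of a gene's probes (beside 4 in all), and 0 to 2 with 1 array left out (beside 0 to 58 of all probes). Against *Asns*, 1 to 2 genes passed the permutation test with 1 array left out. The causes were not tested.

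The arrays share replicate numbers across groups, but the labels do not say that a number marks a shared mouse or day. Deviations of same-numbered arrays correlated at 0.40, 0.13, -0.03, 0.22, -0.20 and 0.37 for replicates 1 to 6, and 4 of 6 numbers correlated best with their own, which is a hint of pairing from the data. The numbers were not taken as pairs, as the labels do not give it and 2 of the 6 correlations were below 0. Such correlations cannot decide whether the arrays were paired. Blocking limma by replicate number called 20 of all 20561 probes at an adjusted p under 0.05 and 177 at under 0.25. Among the 34 genes it called 0 and 2 at these thresholds. At an unadjusted p under 0.05 it passed 7 of the 34. No share of all probes stands beside that 7, so whether it is unusual cannot be told. The 2 genes under 0.25 were *Creld2* (adjusted p = 0.2) and *Sdf2l1* (adjusted p = 0.229), both higher in AAV-Cre. The block was not applied to the correlations.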
